A study of Mus musculus with 6 samples.

Results

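The genes described here are the nuclear-encoded subunits of mitochondrial complexes I, III and IV and of the ATP synthase, in mouse brain endothelial cells after knockdown of the long noncoding RNA Gm39822. They were chosen by symbol alone (Ndufa, Ndufb, Ndufc, Ndufs and Ndufv genes with a number, Uqcr genes, Cox4 to Cox8 genes and Atp5 genes, with names that hold -ps, a mark of pseudogenes, left out), which gave 79 of the 49315 genes in the count table. Of these, 35 belong to complex I, 8 to complex III, 20 to complex IV and 16 to the ATP synthase, with Ndufa4 and its paralog Ndufa4l2 counted to complex IV, where Ndufa4 is known to sit. All samples were bEND.3 cells, an immortalised mouse line of brain endothelial origin, transfected with an antisense LNA GapmeR through Lipofectamine 2000. A GapmeR is a short modified DNA strand that directs RNase H to cut its target RNA. In the 4 GapmeR samples it targeted Gm39822 at 100 nM, and the 2 negative control samples received a control GapmeR at the same 100 nM. Both groups therefore carried a transfected oligonucleotide, 1 targeting GapmeR was used, and nothing in the labels says that the samples came from separate cultures.

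Complex I takes electrons from NADH, complex III passes them from ubiquinol to cytochrome c and complex IV passes them to oxygen, and the protons that these complexes pump across the inner membrane drive the ATP synthase. Each of these complexes joins nuclear-encoded subunits, made in the cytosol and imported, to a few subunits encoded in mitochondrial DNA. Promoters of the nuclear genes are known for sites of NRF1, of the ETS factor GABPA and of YY1. Complex II, which is wholly nuclear-encoded, was not matched by the symbols and is given below for comparison.

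The controls had 29261988 and 34266811 counts in total and the GapmeR samples 30264086 to 37117934, so that 3 counts, the limit that a count of 0 allows, corresponded to 0.0771 to 0.11 CPM (the usual library-scaled count, here normalised by TMM, the trimmed mean of M-values). The level of Gm39822 was 0.0689 ± 0.0433 CPM (SD, n = 4) in the GapmeR samples and 1.99 ± 0.334 CPM (n = 2) in the controls, a log2 fold change of -4.82 (SE 0.41, adjusted p = 8.82e-08, edgeR quasi-likelihood test). This GapmeR mean is under the limit that a count of 0 allows, so the size of the fall is not exact. Gm39822 passed the filter for testing, at least 5 counts in at least 2 samples, only through the 2 controls. All 10 endothelial marker genes were at 1 CPM or more in every sample, with a summed level of 6109 to 6940 CPM in the GapmeR samples against 7847 and 8073 CPM in the controls, and 5 of them fell and 1 rose. The summed level of 8 macrophage markers was 202 to 370 CPM in the GapmeR samples against 169 and 173 CPM in the controls, that of 5 fibroblast markers was 15.4 to 74.2 against 14.5 and 16.0 CPM, and that of 6 pericyte and smooth muscle markers was 6.52 to 10.0 against 1.19 and 1.72 CPM. That of 7 striated muscle markers was 4.50 to 6.16 against 1.97 and 2.26 CPM, and 6 germ cell markers summed to less than 1 CPM in every sample. In the macrophage, striated muscle and germ cell lists, Cd68, Acta1, Ckm, Mb, Prm1 and Ldhc rose and no marker fell. The macrophage markers were highest in GapmeR 3 and 4, where Lyz2 had 168 and 206 CPM. In GapmeR 1 and 2 it had 79.1 and 73.5 CPM. Most of the pericyte and smooth muscle sum was Myh11, with means of 5.64 CPM (GapmeR) and 0.308 CPM (control). The other markers of that list had GapmeR means of at most 1.25 CPM and did not pass the test. The fibroblast maximum came from Col1a1 and Col1a2 in GapmeR 3 (38.0 and 25.2 CPM), and no fibroblast marker passed the test. The part of these markers in the results below was not tested. Among the GapmeR samples, GapmeR 2 stood apart for the subunit genes: it held the highest value in 44 of the 74 that could be tested (59.5%, against 31.3% of the genes tested with a mean of at least 1 CPM), and results that rest on it are given with and without it.

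Most of the subunit genes were measured precisely and lay close to their control level. Of the 79, 74 passed the filter of at least 5 counts in at least 2 samples. At an adjusted p under 0.05, 4 fell (5.41%, against 20.0 percent of all 18234 genes tested) and 2 rose (2.7%, against 25.4 percent), and 68 passed the test in neither direction. The genes that fell were Ndufs3, Cox5a, Cox7a2l and Atp5d, by 1.18 to 1.29 times, and those that rose were Ndufb4 and the barely expressed muscle isoform Cox7a1. The median log2 fold change of the 74 was -0.03, against 0.03 over all genes tested, with 42 negative and 32 positive values. All GapmeR samples were below both controls for 7 of the genes (against 27.3 percent of all genes) and above both controls for 7 (against 31.9 percent), and the groups overlapped for the other 60. Without GapmeR 2 the count that fell was 18 (24.3%, against 22.2% of all genes tested in that setting) and the count that rose was 4 (5.41%, against 26.8%). The low share of genes that fell, although not that of genes that rose, therefore depends on that sample.

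Promoters of 6 genes are shown because these are the genes that passed the test, so that letters known to be bound by NRF1, GABPA and Sp1 can be read directly. Each line gives the 100 bases before the start of the RefSeq transcript, 5′ to 3′ on the strand of the gene, in RefSeq GRCm38.p6, and capitals mark the motifs searched on both strands: GCGCA and GCGC with any base between them for NRF1, CCGGAAG for ETS factors such as GABPA, AAGATGGC for YY1 and GGGCGG for Sp1.
Ndufs3 (chr2:90904722-90904821, minus strand): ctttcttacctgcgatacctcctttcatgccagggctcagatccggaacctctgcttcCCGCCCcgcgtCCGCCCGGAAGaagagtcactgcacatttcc
Cox5a (chr9:57521132-57521231, plus strand): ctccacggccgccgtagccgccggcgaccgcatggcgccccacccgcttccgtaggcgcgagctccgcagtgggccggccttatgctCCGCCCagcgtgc
Cox7a2l (chr17:83514334-83514433, minus strand): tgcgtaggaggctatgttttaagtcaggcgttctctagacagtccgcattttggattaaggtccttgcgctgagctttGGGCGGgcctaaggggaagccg
Atp5d (chr10:80142215-80142314, plus strand): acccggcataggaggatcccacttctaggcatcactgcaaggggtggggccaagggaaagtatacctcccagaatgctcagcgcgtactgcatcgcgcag
Ndufb4 (chr16:37654369-37654468, minus strand): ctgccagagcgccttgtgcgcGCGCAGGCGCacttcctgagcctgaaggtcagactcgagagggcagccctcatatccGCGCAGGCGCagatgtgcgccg
Cox7a1 (chr7:30184071-30184170, plus strand): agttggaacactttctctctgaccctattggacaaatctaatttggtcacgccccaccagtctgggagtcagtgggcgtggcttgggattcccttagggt
Ndufb4, which rose, held the NRF1 letters at 2 places in this stretch. Ndufs3, which fell, held the ETS letters and 2 Sp1 motifs, the nearer of which overlaps the ETS motif, and Cox5a and Cox7a2l held 1 Sp1 motif each. The stretches of Cox7a1 and of Atp5d, shown for the downstream of the 2 Atp5d starts in the promoter table, held none of the 4 motifs. The stretches of Atp5d and Cox5a lie inside the gene spans given below, so transcripts that start further upstream are also annotated. A match describes the letters and no more.

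Over the whole group, RefSeq promoters (250 bases before to 50 after the start) were found for 65 of the 79 genes, 70 promoters in all. The NRF1 letters stood in 22.9% of them, against 8.59% of the 15417 promoters of genes tested, and 4.6% of all 32851 promoters. The YY1 letters stood in 14.3%, against 3.87% of the promoters of genes tested and 2.75% of all, and the ETS letters in 20.0%, against 15.2% and 8.86%. Sp1 letters were in 38.6%, against 58.3% and 35.7%. At least 1 of NRF1, ETS and YY1 stood in 35 of these 70 promoters and in 24.7% of those of genes tested, with a median GC content of 57.2% and 60.0%. The 4 shares are descriptions of sequence with no test. Genes with the NRF1 letters lay on both sides of 0: Ndufb4 rose, and the log2 fold changes of Ndufa8, Cox6a1, Atp5g2 and Ndufs6, which did not pass the test, were -0.11, -0.12, 0.04 and -0.02.

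**Figure D1:**
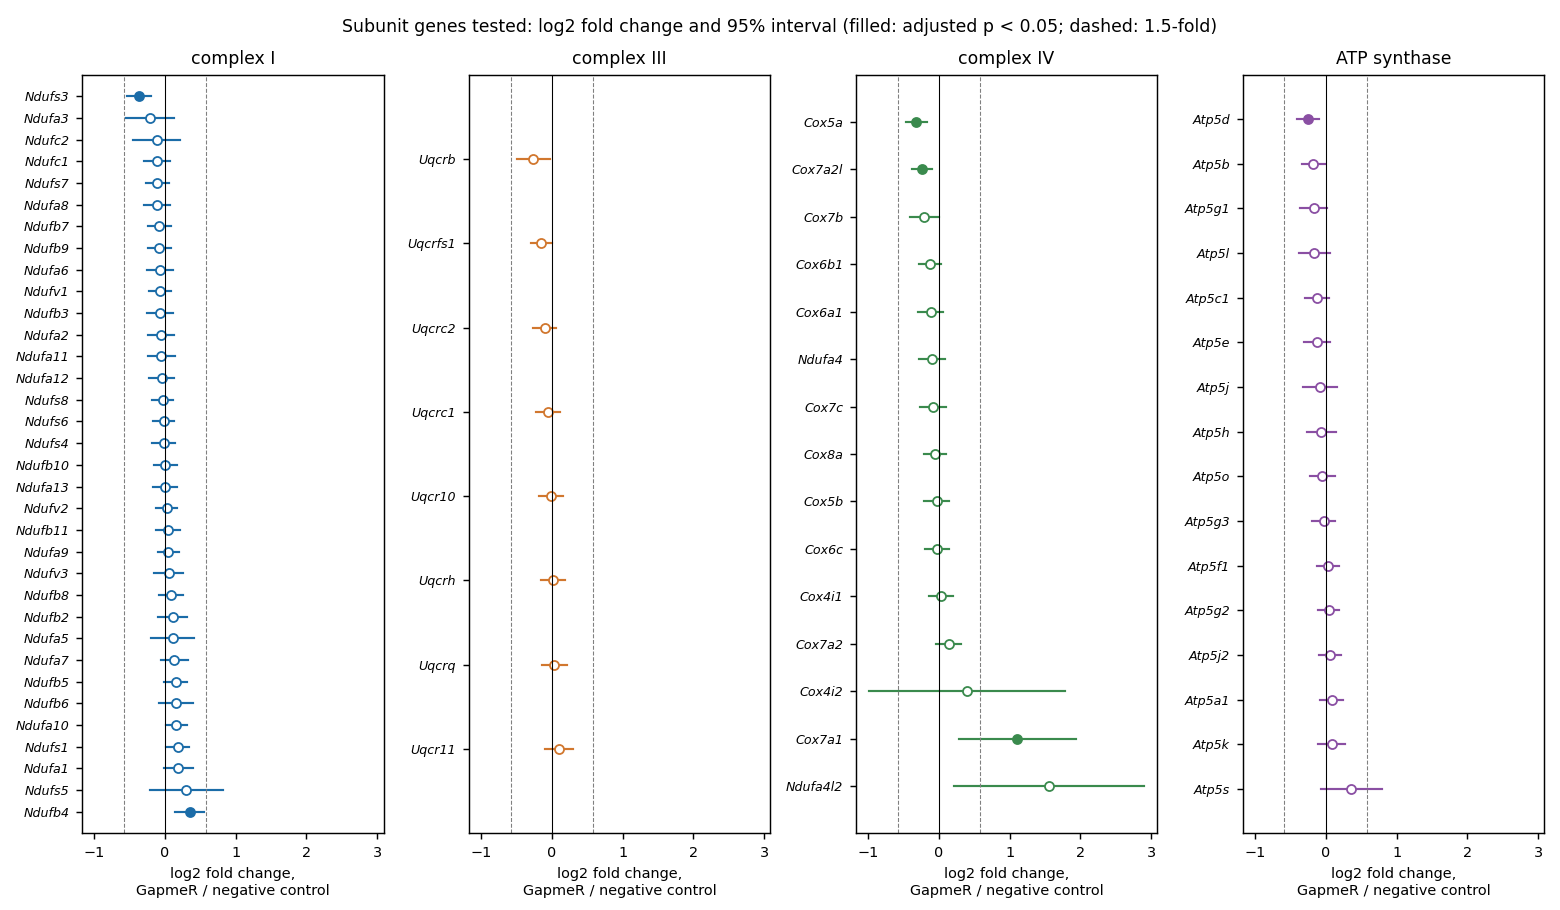
Log2 fold change of GapmeR over negative control (x axis) for the subunit genes tested, by complex, with the 95% interval as a bar and 1 of the 74 genes left out of the drawing. Filled points had an adjusted p under 0.05 and dashed lines mark a 1.5-fold change. Most intervals lie between the dashed lines, and the wide ones belong to Cox4i2, Cox7a1, Ndufa4l2, Atp5s and Ndufs5.

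The core subunits of complex I, which carry the flavin, the iron-sulphur clusters and the quinone site, held 1 gene that fell. Ndufs3 (ENSMUSG00000005510, chr2:90894627-90904721 in GRCm38.p6), a core subunit of the peripheral arm, had 97.8, 93.8, 94.5 and 81.8 CPM in GapmeR samples 1 to 4 and 117 and 120 CPM in the controls. Every GapmeR sample was below both controls, with a log2 fold change of -0.37 (SE 0.08, 95% interval -0.53 to -0.20, adjusted p = 0.00111). It passed the test in the same direction in all 22 other fits tried at that threshold, which varied the scaling, filter, tool, corrections and samples, with log2 fold changes of -0.75 to -0.22. Among these, corrections for GC content and transcript length that did not keep the centre moved the median of all genes to -0.22 and -0.21. They called 54 (73%, against 40.7% of all genes) and 62 (83.8%, against 38.2%) of the 74 subunit genes lower. Pass counts of genes that fell, here and below, include such fits. No other core gene passed the test. Ndufs1, the largest core subunit, was above both controls in all GapmeR samples, with 54.5 to 61.7 CPM against 52.9 and 50.9 CPM, and a log2 fold change of 0.18 (0.02 to 0.33, adjusted p = 0.0618). For Ndufs7, Ndufs8, Ndufv1 and Ndufv2 the log2 fold changes were -0.11, -0.03, -0.07 and 0.02. The core genes together had a median log2 fold change of -0.03.

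Of the 28 accessory genes of complex I, 1 rose and none fell. Ndufb4 (ENSMUSG00000022820, chr16:37647602-37654368), an accessory subunit of the membrane arm, had 22.0, 21.2, 23.9 and 24.4 CPM in the GapmeR samples and 19.6 and 16.4 CPM in the controls. The groups did not overlap, and the log2 fold change was 0.35 (SE 0.10, 95% interval 0.14 to 0.56, adjusted p = 0.00933). Ndufb4 passed the test in the same direction in 17 of 22 other fits and turned to -0.08 in a correction for transcript length. That correction moved the median of all genes to -0.21. Ndufb5, also of the membrane arm, was above both controls in all GapmeR samples, with 39.7, 42.6, 42.5 and 40.5 CPM against 38.3 and 36.1 CPM, but with a log2 fold change of 0.15 (95% interval -0.01 to 0.31) did not pass the test. Ndufa10 was likewise above both controls, with a log2 fold change of 0.16 (0.01 to 0.31). Ndufc1 was below both, although its highest GapmeR value, in GapmeR 2, and its lower control value round to the same 21.65 CPM, and a log2 fold change of -0.11 (-0.29 to 0.07). The remaining accessory genes overlapped between groups. Their values lay between -0.21 for Ndufa3, where GapmeR 2 at 76.8 CPM stood above both controls and the other GapmeR samples, at 51.7 to 60.3 CPM, below them, and 0.30 for Ndufs5. Ndufa8, the complex I gene with the highest mean CPM, had 246, 296, 254 and 238 CPM in the GapmeR samples and 271 and 287 CPM in the controls, and again GapmeR 2 alone was above the controls (log2 fold change -0.11, 95% interval -0.29 to 0.08).

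None of the 8 complex III genes passed the test, and all their 95% intervals lay within 1.5-fold. Uqcrfs1, the Rieske iron-sulphur protein that moves electrons to cytochrome c1, had 86.9, 92.5, 85.0 and 87.1 CPM in the GapmeR samples and 98.7 and 96.4 CPM in the controls. It was the complex III gene whose groups did not overlap, with a log2 fold change of -0.15 (95% interval -0.30 to -0.00, adjusted p = 0.0874). Uqcrb, a small subunit near the quinone site, had the lowest value, -0.26 (-0.49 to -0.03, adjusted p = 0.0603), with GapmeR 2, at 97.3 CPM, above the lower of the controls at 91.6 CPM. Uqcrc1 and Uqcrc2, the large core proteins on the matrix side, had log2 fold changes of -0.06 and -0.10. Uqcrq, with the highest mean CPM of the complex, had 261, 238, 281 and 258 CPM against 270 and 237 CPM and a log2 fold change of 0.03 (-0.14 to 0.21). Cyc1, the catalytic cytochrome c1 that the symbols did not match, had -0.03 (-0.19 to 0.12).

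Complex IV held 2 of the genes that fell. Cox5a (ENSMUSG00000000088, chr9:57517328-57532427), a matrix-side structural subunit, had 86.3, 88.4, 85.4 and 81.8 CPM in the GapmeR samples and 111 and 102 CPM in the controls. All GapmeR samples were lower, with a log2 fold change of -0.32 (SE 0.07, 95% interval -0.47 to -0.17, adjusted p = 0.00152), and the gene passed the test in 20 of 22 other fits. Cox7a2l (ENSMUSG00000024248, chr17:83501917-83514333), a relative of Cox7a known for joining complexes III and IV into supercomplexes, had 67.2, 66.4, 66.3 and 67.2 CPM in the GapmeR samples and 80.2 and 77.8 CPM in the controls. The GapmeR samples lay within about 1 CPM of each other (SD 0.479), below both controls, and the log2 fold change was -0.24 (SE 0.07, -0.38 to -0.10, adjusted p = 0.00696), with the test passed in 18 of 22 other fits. Of the 11 subunits used in most tissues, Cox5a alone passed the test, and their median log2 fold change was -0.08.

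The paralog pairs of complex IV were used very unequally. Cox4i1, the general isoform of subunit 4, had 356 to 409 CPM in the 6 samples, with a log2 fold change of 0.03 (-0.14 to 0.20). Cox4i2, known from lung and for its response to low oxygen, had 0.0365 to 0.251 CPM. Cox6a1 had 490 to 618 CPM and a log2 fold change of -0.12 (-0.29 to 0.06), whereas its heart and muscle paralog Cox6a2 had 0 to 0.157 CPM, too few counts to test. Cox6b1 had 141 to 172 CPM and a log2 fold change of -0.13 (-0.29 to 0.03). Cox6b2, a testis isoform, had 0 counts in both controls and 1, 9, 3 and 3 counts in the GapmeR samples, at or under 0.231 CPM. For Cox7b the values were 64.6, 83.5, 65.9 and 67.5 CPM against 84.8 and 77.8 CPM (log2 fold change -0.21, adjusted p = 0.0951), with GapmeR 2 again within the control range, and its testis paralog Cox7b2 had 1 count in all 6 samples together. Cox8a had 254 to 291 CPM (log2 fold change -0.06, -0.22 to 0.10), and Cox8b of heart and muscle and Cox8c of testis had 0 counts in every sample. Ndufa4 had 32.9 to 39.0 CPM and a log2 fold change of -0.10 (-0.28 to 0.08).

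Cox7a1 (ENSMUSG00000074218, chr7:30184171-30186030), the heart and skeletal muscle isoform of subunit 7a, rose at a level near the limit of detection. It had 0.679, 1.00, 0.935 and 0.991 CPM in the GapmeR samples, from 23, 39, 29 and 32 counts, and 0.219 and 0.595 CPM in the controls, from 6 and 19 counts. The groups did not overlap, and the log2 fold change was 1.11 (SE 0.39, 95% interval 0.28 to 1.94, adjusted p = 0.0297), but the gene passed the test in 10 of the 18 other fits that tested it. The summed level of striated muscle markers, given above, moved in the same direction, although only Acta1, Ckm and Mb of that list passed the test. The other heart and muscle isoforms did not move with it. Cox6a2 had 2, 0, 0 and 1 counts in the GapmeR samples against 1 and 5 in the controls, and Cox8b had 0 in every sample. The part of the muscle markers was not tested. Cox7a2, the general paralog of Cox7a1, had 67.3, 80.2, 67.5 and 67.9 CPM in the GapmeR samples and 65.9 and 62.9 CPM in the controls. All its GapmeR samples were above both controls, with a log2 fold change of 0.14 (-0.04 to 0.31, adjusted p = 0.195). Ndufa4l2, a paralog of Ndufa4 known for its induction by low oxygen, had the highest log2 fold change of the 74, 1.55 (0.21 to 2.90, adjusted p = 0.0558), from 16, 18, 4 and 17 counts in GapmeR samples 1 to 4 against 2 and 6 counts in the controls. GapmeR 3, at 0.129 CPM, lay between the controls.

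**Figure D2:**
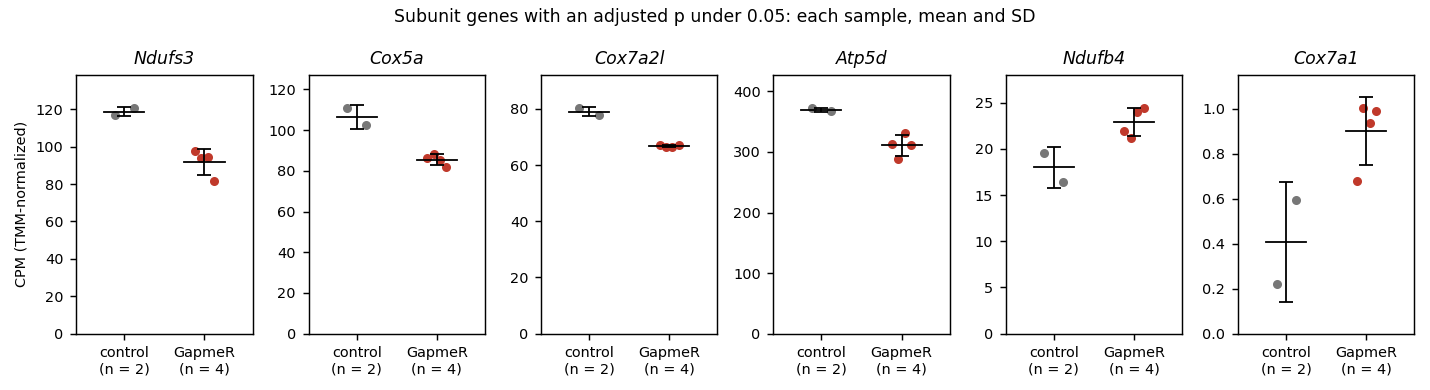
Normalised CPM (y axis, from 0) of the 6 subunit genes with an adjusted p under 0.05, in each control (grey) and GapmeR (red) sample, with bars for the mean and SD. Ndufs3, Cox5a, Cox7a2l and Atp5d were lower in all GapmeR samples, and Ndufb4 and Cox7a1 were higher, the latter at about 1 CPM or less.

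Of the 16 ATP synthase genes, 1 fell and none rose. Atp5d (ENSMUSG00000003072, chr10:80138698-80145828), the delta subunit of the central stalk, had 313, 288, 331 and 312 CPM in the GapmeR samples and 372 and 368 CPM in the controls. The groups did not overlap, and the log2 fold change was -0.25 (SE 0.07, 95% interval -0.41 to -0.09, adjusted p = 0.012), with the test passed in 17 of 22 other fits. Atp5b, the catalytic beta subunit and the gene with the highest mean CPM of the complex, had 2065, 2097, 1997 and 2014 CPM against 2362 and 2265 CPM. All its GapmeR samples were below both controls, with a log2 fold change of -0.18 (-0.34 to -0.02, adjusted p = 0.0649). The alpha subunit gene Atp5a1, whose protein alternates with beta in the head, had 0.08 (-0.08 to 0.24), and Atp5c1 and Atp5e of the central stalk had -0.13 and -0.12. The 3 genes for the same c-ring protein, Atp5g1, Atp5g2 and Atp5g3, had -0.17 (-0.36 to 0.02), 0.04 (-0.12 to 0.19) and -0.03 (-0.19 to 0.14). The 4 peripheral stalk genes, Atp5f1, Atp5h, Atp5j and Atp5o, were between -0.08 and 0.03. Small membrane subunits had -0.16 for Atp5l, 0.05 for Atp5j2 and 0.08 for Atp5k. Atp5s, listed by RefSeq as Dmac2l, was above both controls in all GapmeR samples, at 3.51, 5.09, 3.45 and 3.19 CPM against 2.96 and 3.01 CPM (log2 fold change 0.36, -0.08 to 0.79).

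By complex, the median log2 fold changes were 0.00 for complex I, -0.03 for complex III, -0.06 for complex IV and -0.06 for the ATP synthase. The median standard error of the 74 genes was 0.0828 on the log2 scale, against 0.138 over all genes tested. The 95% interval lay inside a 1.5-fold change in either direction for 69 of the 74 (93.2%), against 39.5% of all genes tested, a measure that was chosen after the results were seen. Since these genes are highly expressed, the same counts were taken among genes with a mean of at least 10 CPM: 69 of 70 subunit genes (98.6%) against 71.7% of 8870 genes. In that class 4 subunit genes fell (5.71%, against 30.7%) and 1 rose (1.43%, against 21.1%). The exception was Ndufs5, with 11.7, 11.9, 16.9 and 16.6 CPM in the GapmeR samples and 14.2 and 9.06 CPM in the controls (95% interval of the log2 fold change -0.22 to 0.82). Among the genes that fell, none changed by 1.5 times or more.

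The GapmeR samples differed among themselves by more than the groups did, whose median log2 fold change over the 74 genes was -0.03. Relative to the control mean, the median log2 difference of the 74 genes was -0.08 in GapmeR 1, 0.07 in GapmeR 2, -0.00 in GapmeR 3 and -0.07 in GapmeR 4, and the controls stood at 0.02 and -0.02. For the ATP synthase the GapmeR samples were at -0.12, 0.10, -0.06 and -0.16, and for complex I at -0.01, 0.08, 0.03 and -0.03. GapmeR 2 thus had the highest median in complexes I and IV and the ATP synthase, and of complex III its value, -0.02, did not stand apart. When GapmeR 2 was left out, 18 of the 74 genes passed the test as lower (24.3%, against 22.2% of all genes). These were 8 of the 16 ATP synthase genes, 4 of complex I, 2 of complex III and 4 of complex IV. They included Atp5b, Atp5c1, Atp5g1, Cox7b, Uqcrb, Uqcrfs1 and Ndufa8 beside the 4 named above, and Ndufa10 then passed as higher. What sets GapmeR 2 apart was not tested. Leaving out control 1 gave 1 gene that fell (1.35%, against 12.5% of all genes) and 3 that rose (4.05%, against 19.5%), and leaving out control 2 gave 2 that fell (2.7%, against 10.7%) and 1 that rose (1.35%, against 18.3%).

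**Figure D3:**
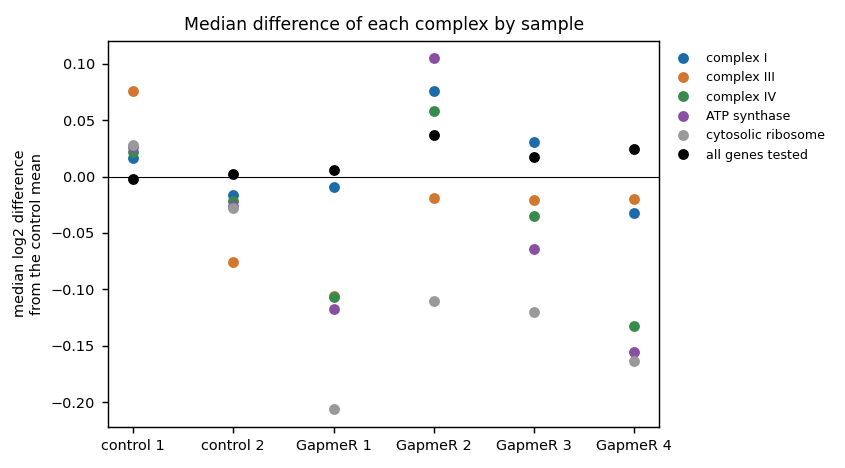
Median log2 difference of TMM-normalised CPM from the control mean (y axis) in each sample (x axis). Points are for the genes of each complex, for cytosolic ribosomal proteins (grey) and for all genes tested (black). GapmeR 2 lies above 0 for complex I, complex IV and the ATP synthase, and cytosolic ribosomal proteins lie below 0 in all 4 GapmeR samples.

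Together the 79 genes took 1.084%, 1.184%, 1.119% and 1.095% of all counts in GapmeR samples 1 to 4, against 1.085% and 1.039% in the controls. The means were 1.12% ± 0.0448 (SD, n = 4) and 1.06% ± 0.0322 (SD, n = 2), with the lowest GapmeR value below the higher control. An exact two-sided permutation test over samples gave p = 0.2, but with 4 and 2 samples it cannot go below 0.0667 and so could not have reached 0.05. On the normalised scale the summed levels were 10580, 11290, 10920 and 10530 CPM against 11590 and 11160 CPM, with GapmeR 2 within the control range and the other GapmeR samples below it. The group means on these scales point in opposite directions, and the normalisation factors between them were 0.931 and 0.936 for the controls and 1.03 to 1.05 for the GapmeR samples. With totals as the only scaling, the median of all genes moved up by 0.15 on the log2 scale, and 1 subunit gene fell (1.35%, against 11.7% of all genes) and 16 rose (21.6%, against 33.5%). Within the 79, the share of counts was 26.0 to 27.6% for complex I, 9.77 to 10.6% for complex III, 18.7 to 19.4% for complex IV and 42.7 to 44.9% for the ATP synthase over the 6 samples. Fewer cells and less RNA per cell cannot be told apart in these bulk samples.

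Compared per length (RPKM, the CPM divided by the length of the canonical transcript in kilobases), the complexes formed an order that both groups shared. Median levels in the controls and in the GapmeR samples were 68.6 and 66.1 RPKM for complex I, 109 and 104 RPKM for complex III, 150 and 120 RPKM for complex IV, and 177 and 170 RPKM for the ATP synthase. Both complex IV medians are the values of Cox5a alone, a gene that fell. The median log2 fold change of complex IV was -0.06. Atp5b was the highest in the controls, at 1201 RPKM, followed by Cox6a1 at 1025 RPKM. Cox8a, Atp5e and Cox4i1, at 496, 494 and 493 RPKM in the controls, came next and differed by less than their spread. In complex I the controls ran from 7.95 RPKM for Ndufb2 to 324 RPKM for Ndufa8, and in complex III from 40.5 RPKM for Uqcrh to 240 RPKM for Uqcr10. Over the 74 genes, Spearman's rho between the group means was 0.993, a description across genes that share libraries and lengths. Transcript length and the copies of a gene elsewhere in the genome bear on such levels: for Ndufb2 the annotated canonical transcript is 4389 bases long, and 6 pseudogenes named after these genes had at most 13 counts in a sample.

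**Figure D4:**
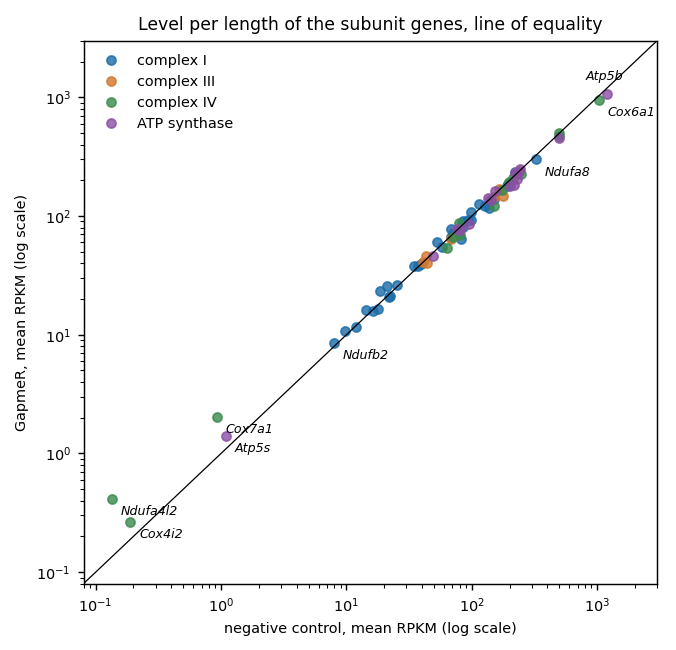
Mean level per length (RPKM, log scales) of the 74 subunit genes in the negative control (x axis) and GapmeR (y axis) samples, with the line of equality. Most genes lie along the line, up to Cox6a1 and Atp5b near 1000 RPKM. The weakly expressed Ndufa4l2 (0.135 RPKM in the controls, 0.411 in the GapmeR samples) and Cox7a1 (0.923 and 2.04 RPKM) lie above it.

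Genes that work beside these subunits were counted in the same way. The 7 subunits or close associates that the symbols missed had 2 that fell (28.6%, against 20.0% of all genes tested). These were Higd1a, a hypoxia-induced protein of complex IV (log2 fold change -0.34, SE 0.09, adjusted p = 0.00779), and 2010107E04Rik, which RefSeq lists as the ATP synthase gene Atp5mpl (-0.26, SE 0.10, adjusted p = 0.0421). None of the 4 complex II genes passed the test (median -0.10). Of the 13 genes of mitochondrial DNA, 9 could be tested and none passed, with a median of -0.14, wide intervals such as -0.40 to 0.06 for mt-Co1, and GapmeR 2 and GapmeR 4 above GapmeR 1 and GapmeR 3 for mt-Co1, at 2172 and 2555 against 1966 and 1915 CPM. Of the 13, 6 (mt-Co2, mt-Co3, mt-Atp6, mt-Atp8, mt-Nd3 and mt-Nd4l) had at most 10 counts in any sample, and no level can be read from these. Of these, mt-Co2 and mt-Co3 are nevertheless among the 9 tested and enter the median, with log2 fold changes of 1.02 and 0.10.

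Of 44 assembly factors, 7 fell (15.9%, against 20.0% of all genes tested) and 10 rose (22.7%, against 25.4%). Timmdc1, needed to assemble the membrane arm of complex I, rose from 11.2 ± 0.0627 CPM (SD, n = 2) to 25.9 ± 0.641 CPM (n = 4), a log2 fold change of 1.21 (SE 0.09, adjusted p = 1.76e-08). Foxred1, another complex I assembly factor, rose by 0.59 (SE 0.09, adjusted p = 9.58e-05). The complex I subunits themselves had a median of 0.00. Of 14 genes for cytochrome c and coenzyme Q synthesis, 3 fell (21.4%) and 4 rose (28.6%), close to the shares of all genes. The 3 that fell were Coq3 (log2 fold change -0.60, SE 0.10, adjusted p = 1.78e-04), Coq10a (-0.32, SE 0.11, adjusted p = 0.0252) and Cycs, the gene of cytochrome c (-0.18, SE 0.07, adjusted p = 0.0425). Those that rose included Pdss1, which makes the prenyl tail of coenzyme Q (1.09, SE 0.17, adjusted p = 1.18e-04), and Coq8a (1.24, SE 0.27, adjusted p = 0.00145). Of 14 regulators of mitochondrial genes, 1 fell (7.14%) and 4 rose (28.6%), the first share below that of all genes and the second close to it. Tfb2m, which starts transcription of mitochondrial DNA, rose from 7.07 ± 0.287 to 13.6 ± 0.641 CPM (0.94, SE 0.11, adjusted p = 3.33e-06), and Tfb1m, which methylates mitochondrial ribosomal RNA, rose by 0.87 (SE 0.22, adjusted p = 0.0045). Of the factors whose motifs are given above, Nrf1 and Gabpa did not pass the test, with log2 fold changes of 0.05 and -0.13, and Yy1 and Gabpb1, the partner of Gabpa, did, with -0.28 and 0.40. These 4 were named after their values were seen.

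In the ribosomes and the import machinery more genes fell than rose. Of 89 cytosolic ribosomal protein genes, 22 fell (24.7%) and 4 rose (4.49%), with a median of -0.16. Rpl23 fell by 0.42 (SE 0.08, adjusted p = 4.86e-04) and Rpl3 rose by 0.47 (SE 0.08, adjusted p = 1.53e-04). Of 78 mitochondrial ribosomal protein genes, 19 fell (24.4%) and 8 rose (10.3%), with a median of -0.09, Mrpl17 at -0.52 (SE 0.08) and Mrps27 at 0.57 (SE 0.09). Of 26 import genes, 8 fell (30.8%) and 3 rose (11.5%), with Tomm40, the channel of the outer membrane, at -0.33 (SE 0.07, adjusted p = 0.00115) and Timm21 of the inner membrane at 0.45 (SE 0.18, adjusted p = 0.0496). Set beside the background of 20.0 percent of all genes that fell, the share of the import genes was higher, those of both ribosome lists were nearer to it, and that of the subunit genes, 5.41%, was lower. The median level was 53.9 CPM for the import, 52.1 for the mitochondrial and 648 for the cytosolic ribosome list, against 8.93 CPM over all genes. Among all genes of at least 10 CPM, 30.7% fell and 21.1% rose. Beside that 30.7%, the import share was about the same and both ribosome shares were lower. The difference between the lists was not tested.

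**Figure D5:**
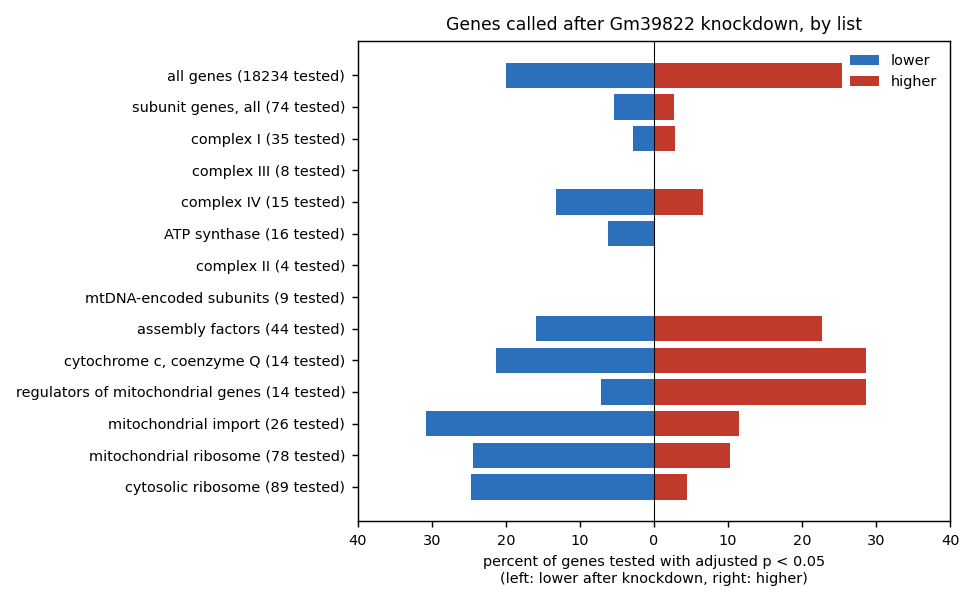
Percent of genes tested that passed an adjusted p under 0.05 (x axis), lower to the left and higher to the right, for all genes, for the subunit genes and their complexes and for the other lists. Of the subunit genes 5.41% were lower and 2.7% higher, against 20.0% and 25.4% of all genes, and complexes II and III and the subunits encoded by mitochondrial DNA had none.

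Expression level and transcript length go along with the share of genes called, and these genes are uncommon in both. Of the 74, 55 lay in the fifth of genes with the highest mean level (60.6 to 7150 CPM), where 37.6% of all genes fell and 13.3% rose, and all 4 subunit genes that fell were there (4 of 55). Of the 74, 45 lay in the fifth with the shortest transcripts (up to 1325 bases), where 10.1% of all genes fell and 23.7% rose. All genes in this length class had a median log2 fold change of 0.12, and the 45 subunit genes among them one of -0.05. When a curve on transcript length, centred so as to keep the normalisation, was removed from each sample, 29 subunit genes fell (39.2%, against 19.9% of all genes) and 2 rose (2.7%, against 28%). The low share of genes that fell therefore depends on this setting, and the low share that rose does not. Among genes of at least 10 CPM the same correction gave 2 that fell (2.86%, against 23.6%) and 9 that rose (12.9%, against 26.8%).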

How the data were processed

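RNA of 6 bEND.3 samples was analysed from the whole-number read counts per Ensembl gene that the authors deposited, unnormalised and unfiltered, with mm10 (GRCm38) named as the genome. The submitters' processing notes list Trimmomatic 0.36, STAR 2.5.2b and Subread 1.5.2. The strand setting and Ensembl release are not given in the sources used here, so reads of overlapping, antisense or near-identical genes, including processed pseudogenes of many subunit genes, may be shared or split. The study's text describes ribosomal RNA depletion and the labels an ultra low input kit. Groups were taken from the sample titles (4 and 2 samples, although the study gives 4 for each), and 1 further column of per-sample counts was not used. Nothing says that samples were separate cultures, so p-values measure the spread between these samples, which may be technical. No replicates agreed within sampling noise.

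Counts were tested with edgeR 4.0.16 in R 4.3.3 (TMM normalisation, robust quasi-likelihood fit, Benjamini-Hochberg adjustment over the 18234 genes that reached 5 counts in 2 samples or more), and a gene was called at an adjusted p under 0.05. The study used DESeq2's Wald test, which was run here as an alternative with DESeq2 1.42.0, beside limma-voom 3.58.1. In simulated counts with 200 changed genes, the test recovered 99 of 100 genes changed by 1 log2 unit and 70 of 100 changed by 0.5, with 6 false among 175 calls. CPM are TMM-normalised, SDs are between samples, and limits of 3 counts cover counting error only. Lengths are those of canonical transcripts in GENCODE M39 (GRCm39), and promoters and gene coordinates are from RefSeq GRCm38.p6. Replicate numbers of the titles do not pair the samples (correlations of same-numbered deviations -0.04 and 0.09 over 12772 genes).

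The genes and lists were chosen with earlier results of these data known. Named genes were, per complex, up to 3 of the lowest and highest called genes with a mean of at least 1 CPM, the gene with the highest mean, and the paralog isoforms, and, per other list, the 2 called genes with the largest change among those with a mean of at least 1 CPM. Others were chosen after their values were seen: the remaining subunit genes given by role, Cyc1, Cycs, Coq3, Coq10a, mt-Co1, Nrf1, Gabpa, Gabpb1 and Yy1. Roles within a complex follow textbook assignments. Subunit genes not named, 1 of which is not reported here, are kept in all counts and medians.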

Additional observations from a re-analysis of the deposited data

Results flagged for a closer look

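Of 90 items examined for a GapmeR sample far from the other 3, 71 of them values of single subunit genes, 12 were flagged by Dixon's criterion, where chance flags about 1 in 20 groups. GapmeR 2 was the distant sample in 8 of the 12. Its value was the high one for the ATP synthase genes Atp5g3 (249 CPM, the others 216 to 221), Atp5f1 (210 CPM, the others 188 to 190), Atp5h (194 CPM, the others 149 to 154) and Atp5s (5.09 CPM, the others 3.19 to 3.51), and for the complex IV genes Cox7b (83.5 CPM, the others 64.6 to 67.5) and Cox7a2 (80.2 CPM, the others 67.3 to 67.9). It was the low one for Uqcrc1 of complex III (218 CPM, the others 242 to 247). The share of counts on the ATP synthase was 0.518% in GapmeR 2 and 0.473 to 0.478% in the others. GapmeR 1 was the low sample for Cox4i1 (356 CPM, the others 401 to 409) and for the share of counts on complex III (0.111%, the others 0.116 to 0.117%), and the high sample for Coq8a (2.10 CPM, the others 1.58 to 1.64). GapmeR 3 was high for Ndufa6 (53.9 CPM, the others 44.6 to 46.0). Without GapmeR 2, 18 subunit genes fell in place of 4, as given above. The cause was not tested.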

How the results depend on the processing

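Of the subunit genes 4 fell (5.41%, against 20% of all genes) and 2 rose (2.7%, against 25.4%), and these counts moved with many settings. With library size alone as scaling 1 fell (1.35%, against 11.7% of all genes) and 16 rose (21.6%, against 33.5%), with a median log2 fold change of 0.12. In that setting 29 genes (39.2%) did not overlap between groups in place of 14 (18.9%), against 59.2% of all genes in both scalings, and 2135 of all genes fell. The DESeq2 Wald test gave 1 that rose (1.35%, against 23% of all genes). No filter gave 7 and 6 (9.09% and 7.79%, against 13.5% and 17% of all genes). At least 10 counts in every sample gave 5 that rose (7.04%, against 24.4%). An adjusted p under 0.01 left 1 that rose, with 3402 of all 18234 genes rising. A log2 change of at least 0.58 left 0 and 1, with 1406 of all genes falling and 3248 rising. Removing a curve on GC content gave 54 and 0 (73% and 0%, against 40.7% and 17.9% of all genes), with a median of -0.29 and 7314 of all genes falling. One on length gave 62 and 0 (83.8% and 0%, against 38.2% and 18.6%), with a median of -0.41 and 6861 falling. These curves by construction move the centre of all genes, by which TMM scaling is lost. Settings chosen after seeing the data were therefore added. Curves centred to keep the scaling gave 10 and 5 for GC content (13.5% and 6.76%, against 21.7% and 27% of all genes). For length they gave 29 and 2 (39.2% and 2.7%, against 19.9% and 28%, median -0.16). With genes of at least 10 CPM alone 5 rose (7.14%, against 26.6% of all genes in that class), and of all genes 2077 fell and 2355 rose. In that class the centred GC curve gave 7 that rose (10%, against 28.4%), with 2231 and 2509 of all genes. The length curve gave 2 and 9 (2.86% and 12.9%, against 23.6% and 26.8%), with 2085 and 2373 of all genes. Without GapmeR replicates 3 and 4, where macrophage markers were highest, 4 rose (5.41%, against 25.4% of all genes). Leaving out 1 sample at a time gave 1 to 18 that fell and 1 to 4 that rose, medians of -0.05 to 0.00, and 1930 to 3949 and 3302 to 4800 of all genes. A group left with 1 sample is assumed to vary like the other. The causes of the other differences were not tested.

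The replicate number as a block rests on 4 samples and 1 residual degree of freedom, and the numbers do not pair the samples. The block gave 4 that rose (5.41%, against 24.3% of all genes). The block with a GC curve gave 44 and 1 (59.5% and 1.35%, against 38.4% and 17.2%), with a median of -0.26 and 6902 of all genes falling.

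Single genes with values near 0 changed sign. Under library size alone Ndufa8 had 0.0398, Cox6a1 0.0321, Cox6b1 0.0167, Cox8a 0.0888, Ndufa4 0.0502 and Atp5g3 0.120. Under the GC curve, the length curve and the block with the GC curve Uqcrq had -0.222, -0.346 and -0.256, Cox4i1 -0.317, -0.407 and -0.325, and Atp5g2 -0.206, -0.398 and -0.155. The GC and length curves gave -0.0080 and -0.298 for Cox7a2, and the length curve -0.0786 for Ndufb4 and -0.0238 for Cox4i2. The centred length curve gave -0.0871 for Uqcrq, -0.147 for Cox4i1, -0.0391 for Cox7a2 and -0.140 for Atp5g2, and the centred GC curve -0.0576 for Cox4i1 and 0.0276 for Ndufa4. With the block Uqcrq had -0.0223, Cox4i1 -0.0280 and Atp5g3 0.0163. Genes of at least 10 CPM gave 0.0149 for Cox8a and 0.0450 for Atp5g3, with the length curve 0.0305 and 0.0711, and with the GC curve 0.0496 for Atp5g3. At least 10 counts in every sample gave 0.0184 for Atp5g3. Leaving out 1 sample at a time gave -0.0399 to 0.148 for Uqcrq, -0.0147 to 0.110 for Cox4i1, -0.312 to 2.35 for Cox4i2 and -0.0763 to 0.0276 for Atp5g3. Leaving out GapmeR 3 and 4 gave -0.0017 for Uqcrq, -0.0049 for Cox4i1 and 0.0408 for Atp5g3. None of these genes but Ndufb4 had passed the test.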
